A study of Mus musculus with 44 samples.

Results

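Pi16, Cd34, Ly6a, Ly6c1, Dpt, Cd248, Thy1 and Anxa3 are 8 genes used as markers of progenitor-like and adventitial fibroblasts. They were taken by symbol from a table of 55486 genes, and all 8 passed the filter on low counts that left 16601 genes for testing. The RNA came from fibroblasts of the mouse mammary gland and of mammary tumors, sorted by surface CD26. The question asked of each gene was whether its level differed between CD26- and CD26+ cells, and whether it differed between normal fibroblasts (NFs) of control glands and cancer-associated fibroblasts (CAFs) of tumors.

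All hosts were female En1-Cre;mTmG mice. In these mice Cre from the En1 (Engrailed 1) locus switches a reporter from membrane tdTomato to membrane GFP in cells that express En1 or descend from such cells, so the controls carried the same alleles as the tumor hosts. Mammary fragments were grafted into fat pads that had not been cleared, so host epithelium and stroma remained. Control glands received tissue that the labels call wildtype, which the study's methods describe as coming from WapCre-negative Cdh1F/F;PtenF/F donors. WB1P tumors arose from WapCre;Brca1F/F;Trp53F/F tissue, in which the Wap promoter drives Cre in mammary epithelium, and WB1P-Myc tissue added a Cre-activated Myc-IRES-luciferase transgene at Col1a1. Control glands were age-matched to the tumors by the series' design text, and the ages of these hosts at harvest were not given in the sources used here. In all, 44 libraries of 13 mice were available, with 12 libraries of 3 control mice, 16 of 5 WB1P mice and 16 of 5 WB1P-Myc mice. Each control label carried a pair of animal numbers, so a control mouse counted here may be a pool of animals. Of the WB1P-Myc mice, replicates 12 and 13 had tumors marked 8x8, which is the advanced stage in the study's scheme, and the other tumors were at end stage. The sort kept cells negative for EpCAM, CD49f, CD31 and CD45, and split them by CD26 and GFP into En1+ (GFP only), CD26+ (CD26 only), double+ and double- cells. Counts of the 2 populations that share a CD26 class were added within each mouse, which gave 25 sums in 6 groups, 19 of them from both libraries and 6 from a single library. The single libraries were En1+ for CD26- replicate 4, double- for CD26- replicates 9 and 11, and double+ for CD26+ replicates 6, 10 and 11. Groups held 3 control mice, 5 WB1P mice in CD26- and 4 in CD26+, and 5 WB1P-Myc mice. Levels are CPM, counts scaled to library size, after TMM normalization, given per mouse as replicate 1 to 3 (control), 4 to 8 (WB1P; CD26+ lacks replicate 4) and 9 to 13 (WB1P-Myc).

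Fibroblasts with Pi16, Dpt, Cd34 and Ly6a in common are found around vessels and in fascia of many tissues. In reference atlases of mouse fibroblasts they form a Pi16+ universal state, placed beside a Col15a1+ universal state of the parenchyma, and both states have been proposed to act as reservoirs from which specialised fibroblasts arise. CD26 itself, the peptidase DPP4, marks much of the Pi16+ state in skin, fat and mammary stroma.

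Ly6a and Ly6c1 belong to a cluster of related genes on chromosome 15, in which Ly6c1 and Ly6c2 are near-identical, so the start of their coding sequences is shown to make plain how few bases separate reads of Ly6c1 from those of Ly6c2. The first 120 coding bases are given from the GENCODE M21 reference (GRCm38, minus strand), from the first coding exon and the exon after it (15:75048442-75048511 and 75047420-75047469 for Ly6c1, 15:75111598-75111667 and 75110578-75110627 for Ly6c2, 15:74997535-74997604 and 74996519-74996568 for Ly6a). Capitals mark bases that differ from Ly6c1, 6 in Ly6c2 and 8 in Ly6a.
Ly6c1: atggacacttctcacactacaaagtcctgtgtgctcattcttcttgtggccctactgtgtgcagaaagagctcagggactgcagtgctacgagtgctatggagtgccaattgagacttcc
Ly6c2: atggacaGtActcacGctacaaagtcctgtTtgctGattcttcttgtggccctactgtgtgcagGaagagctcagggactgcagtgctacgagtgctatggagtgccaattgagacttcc
Ly6a: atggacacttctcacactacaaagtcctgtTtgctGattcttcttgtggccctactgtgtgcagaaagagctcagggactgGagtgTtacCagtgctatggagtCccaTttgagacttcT

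Over the whole coding sequence Ly6c1 and Ly6c2 were identical at 387 of 396 bases (97.7%), and Ly6a and Ly6c1 shared 83.8% of aligned bases. Of the 54-base words in the exons of Ly6c1, a length equal to the sequenced read, 30.3% also occurred in another gene, 355 words in Ly6c2 and 179 in Ly6a. The share was 17.0% for Ly6a, 3.48% for Pi16, 1.73% for Cd34, 1.69% for Anxa3 and 0 for Dpt, Cd248 and Thy1. How the authors' counting treated reads that match more than 1 gene is not given in the sources used here, so Ly6c1 and Ly6a values are uncertain to that extent. In the counts as deposited, Ly6c2 held 0 to 38 reads per sum against 192 to 12286 for Ly6c1, or 0 to 1.24% of the reads of both.

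The annotated positions on GRCm38 were 17:29317680-29330593 for Pi16 (ENSMUSG00000024011), 1:194938819-194961279 for Cd34 (ENSMUSG00000016494), 15:74994877-74998031 for Ly6a (ENSMUSG00000075602) and 15:75044018-75048830 for Ly6c1 (ENSMUSG00000079018). Dpt (ENSMUSG00000026574) lay at 1:164796644-164824266, Cd248 (ENSMUSG00000056481) at 19:5068078-5070682, Thy1 (ENSMUSG00000032011) at 9:44043384-44048579 and Anxa3 (ENSMUSG00000029484) at 5:96793339-96845966. Exons of Pi16 and Cd34 overlapped antisense transcripts over 222 and 148 bases, and those of Anxa3 a same-strand transcript over 112 bases, and the strand setting of the counting is not given in the sources used here.

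The sort gate was visible in Dpp4, the gene of CD26, which is a check and not a result. Dpp4 averaged 4.87 CPM in CD26- and 526.5 in CD26+ control cells, 5.04 and 419.2 in WB1P, and 7.78 and 409.9 in WB1P-Myc. Library totals ran from 5790599 to 15240328 counts (median 12818093). The 7 fibroblast genes fixed as a check (Pdgfra, Pdgfrb, Col1a1, Col1a2, Col3a1, Dcn, Lum) summed to 31940 to 90200 CPM and none was at 0. Markers of 8 pericyte genes (among them Rgs5, Kcnj8 and Abcc9, with none at 0) summed to 217.1 to 386.0 CPM in CD26- and 171.4 to 190.5 in CD26+ control cells, to 1908 to 5534 in CD26- and 238.7 to 453.8 in CD26+ WB1P cells, and to 2421 to 9338 in CD26- and 208.2 to 360.0 in CD26+ WB1P-Myc cells. The gate used no pericyte marker, and the part of pericytes in the CD26- tumor values below was not tested. Endothelial (10 genes), immune (13) and epithelial (9) markers summed to at most 258.0, 250.2 and 197.8 CPM, and skeletal muscle (6), mesothelial (7), Schwann (5) and adipocyte (5) markers to at most 302.3, 80.2, 50.2 and 64.8 CPM. Fewer cells of a type and less RNA per cell cannot be told apart in such bulk samples. No batch or date was given, so a batch of tumor against control samples cannot be told apart from the condition. The p-values below measure the spread between mice within groups, from a fit without a mouse term. For CD26+ against CD26- cells they do not measure the spread of the difference within mice, for which paired fits are given as alternatives.

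Pi16 encodes peptidase inhibitor 16, a secreted and membrane-bound member of the CAP superfamily. In control mice 1 to 3 Pi16 stood at 263.0, 267.9 and 159.1 CPM in CD26- and at 909.1, 2573 and 1552 CPM in CD26+ NFs. WB1P CAFs of mice 4 to 8 had 20.5, 328.0, 90.9, 102.6 and 131.9 CPM in CD26-, and mice 5 to 8 had 2797, 1681, 2112 and 2002 CPM in CD26+. In WB1P-Myc mice 9 to 13 the values were 121.5, 262.8, 469.0, 48.9 and 226.4 CPM in CD26-, and 1826, 2353, 2379, 1175 and 1666 CPM in CD26+. The classes did not overlap in any condition, and CD26+ cells were the higher in every mouse with both, by 3.46 to 9.75 times in control, 8.53 to 20.6 times in WB1P and 5.07 to 24.0 times in WB1P-Myc. Pi16 was higher in CD26+ cells by 2.87 on the log2 scale in control (SE 0.71, 95% interval 1.39 to 4.35, edgeR FDR 0.0214), 3.99 in WB1P (SE 0.59, edgeR FDR 3.69e-05) and 3.06 in WB1P-Myc (SE 0.56, edgeR FDR 0.000349). The control call was lost when any control mouse was left out, with log2 values of 3.27, 2.55 and 2.71 and edgeR FDR of 0.0559, 0.217 and 0.213 without mice 1, 2 and 3.

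Cd34 encodes a sialomucin of hematopoietic progenitors, endothelium and adventitial fibroblasts. Its levels in control mice were 356.7, 644.2 and 322.3 CPM in CD26- and 790.5, 1524 and 998.9 CPM in CD26+ NFs. In WB1P they were 17.7, 159.5, 79.8, 83.7 and 114.5 CPM in CD26- and 1460.0, 1219, 1363 and 1339 CPM in CD26+ CAFs. In WB1P-Myc they were 167.8, 248.9, 223.6, 42.3 and 356.8 CPM in CD26- and 1425, 1231, 1336, 1047 and 1075 CPM in CD26+ CAFs. The classes were again apart in every condition, with the lowest values of all in the CD26- CAFs of WB1P mouse 4 and WB1P-Myc mouse 12. The CD26- value of mouse 4 came from a single En1+ library. Summed pericyte markers in CD26- CAFs of WB1P mice 4 to 8 stood at 5534, 2095, 2531, 1908 and 2727 CPM. In WB1P-Myc mice 9 to 13 they stood at 9338, 3153, 4334, 4379 and 2421 CPM, the highest in mouse 9. The part of pericytes in the Cd34 values was not tested. Cd34 rose with CD26 by 3.88 on the log2 scale in WB1P (SE 0.49, edgeR FDR 5.73e-06) and by 2.56 in WB1P-Myc (SE 0.45, edgeR FDR 0.000249). The control difference was 1.32 (SE 0.56, 95% interval 0.17 to 2.48, edgeR FDR 0.248), and 1.34 with the mouse as a fixed replicate block (edgeR FDR 0.0424).

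Dpt encodes dermatopontin, a small matrix protein that binds collagen fibrils and decorin. Control NFs held 680.6, 1288 and 613.0 CPM in CD26- and 1622, 2420.0 and 1810.0 CPM in CD26+ cells. WB1P CAFs held 78.1, 532.9, 159.4, 176.7 and 229.0 CPM in CD26- and 2248, 2058, 1566 and 1834 CPM in CD26+ cells. WB1P-Myc CAFs held 425.8, 696.3, 460.5, 107.5 and 958.6 CPM in CD26- and 2217, 1791, 1919, 1589 and 1653 CPM in CD26+ cells. CD26+ values sat in a similar range in the 3 conditions, while CD26- values spread widely in tumors. On the log2 scale the CD26 difference was 3.03 in WB1P (SE 0.47, edgeR FDR 6.15e-05), 1.79 in WB1P-Myc (SE 0.44, edgeR FDR 0.00494) and 1.18 in control (SE 0.56, 95% interval 0.03 to 2.33, edgeR FDR 0.338), where it was not called.

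Ly6a encodes Sca-1, a GPI-anchored surface protein used to enrich progenitor cells in several mouse tissues. It stood at 66.8, 256.7 and 48.3 CPM in CD26- and 199.0, 501.7 and 302.7 CPM in CD26+ NFs. WB1P CAFs had 97.0, 237.4, 116.8, 138.3 and 165.2 CPM in CD26- and 905.0, 1217, 850.6 and 798.5 CPM in CD26+ cells. WB1P-Myc CAFs had 164.1, 287.7, 364.2, 112.8 and 776.5 CPM in CD26- and 1037, 800.4, 1016, 736.4 and 1214 CPM in CD26+ cells. The 2 classes were apart in WB1P alone, since CD26- control mouse 2 exceeded CD26+ control mouse 1 and CD26- WB1P-Myc mouse 13 exceeded CD26+ mouse 12. The log2 difference was 2.64 in WB1P (SE 0.48, edgeR FDR 0.000322), 1.49 in WB1P-Myc (SE 0.45, edgeR FDR 0.0203) and 1.43 in control (SE 0.58, 95% interval 0.23 to 2.63, edgeR FDR 0.222). With the mouse as a replicate block the control difference was called, at 1.72 (limma FDR 0.00764 as a random and edgeR FDR 0.0149 as a fixed block). The WB1P-Myc call was lost without mouse 9, 10, 11 or 12, with log2 values of 1.29, 1.48, 1.50 and 1.34 and edgeR FDR of 0.103, 0.0581, 0.0609 and 0.0664.

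Ly6c1 encodes a GPI-anchored protein read by Ly6C antibodies together with Ly6c2. Control NFs had 20.4, 97.7 and 15.9 CPM in CD26- and 99.1, 284.8 and 161.0 CPM in CD26+ cells. WB1P CAFs had 14.9, 71.1, 22.9, 39.2 and 43.9 CPM in CD26- and 431.5, 559.5, 448.3 and 409.2 CPM in CD26+ cells. WB1P-Myc CAFs had 63.0, 115.4, 106.3, 16.7 and 270.8 CPM in CD26- and 530.8, 397.3, 448.7, 319.4 and 547.8 CPM in CD26+ cells. As for Ly6a, control mouse 2 and WB1P-Myc mouse 13 were the highest of their CD26- groups, and no class overlapped the other. Ly6c1 was higher in CD26+ CAFs by 3.59 on the log2 scale in WB1P (SE 0.61, edgeR FDR 0.000151) and 1.97 in WB1P-Myc (SE 0.56, edgeR FDR 0.0135), and the control difference of 2.02 was not called (SE 0.72, 95% interval 0.53 to 3.51, edgeR FDR 0.142). With the mouse as a replicate block it was called, at 2.39 as a random (limma FDR 0.00555) and 2.38 as a fixed block (edgeR FDR 0.0114), and CD26+ NFs were the higher in 3 of 3 control mice. Without WB1P-Myc mouse 9 the call there was lost (log2 1.75, edgeR FDR 0.0771). The shared sequence printed above applies to these values, and the CPM of Ly6a was 1.76 to 6.74 times that of Ly6c1 over the 25 sums.

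Cd248 encodes endosialin, a transmembrane glycoprotein of stromal fibroblasts and pericytes. Its control values were 271.2, 334.1 and 264.7 CPM in CD26- and 644.2, 1260.0 and 924.8 CPM in CD26+ NFs. WB1P CAFs had 669.9, 445.8, 747.7, 495.5 and 761.5 CPM in CD26- and 1374, 1526, 1294 and 1528 CPM in CD26+ cells. WB1P-Myc CAFs had 904.3, 838.6, 625.8, 1013 and 669.0 CPM in CD26- and 1595, 1688, 1328, 1390.0 and 1132 CPM in CD26+ cells. The classes were apart in each condition, with a smaller gap than for Pi16 or Anxa3. Cd248 was higher in CD26+ cells by 1.70 on the log2 scale in control (SE 0.25, edgeR FDR 0.000153), 1.20 in WB1P (SE 0.20, edgeR FDR 0.000108) and 0.82 in WB1P-Myc (SE 0.19, edgeR FDR 0.00287).

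Thy1 encodes CD90, a GPI-anchored protein of fibroblasts, T cells and neurons, and it was the exception among the 8 genes. Control NFs had 849.9, 456.2 and 566.2 CPM in CD26- and 810.3, 288.5 and 472.1 CPM in CD26+ cells. WB1P CAFs had 724.1, 687.1, 882.3, 709.9 and 689.2 CPM in CD26- and 523.1, 910.2, 488.0 and 432.5 CPM in CD26+ cells. WB1P-Myc CAFs had 1047, 841.8, 645.1, 757.3 and 739.6 CPM in CD26- and 570.9, 639.2, 616.5, 538.4 and 508.7 CPM in CD26+ cells. CD26+ cells were the lower in 3 of 3 control, 3 of 4 WB1P and 5 of 5 WB1P-Myc mice, and the classes were apart in WB1P-Myc alone. The exception was WB1P mouse 6, whose CD26+ value came from a single double+ library with the lowest total of all (5790599 counts). None of the 3 differences was called, at log2 values of -0.25 in control (95% interval -0.87 to 0.37, edgeR FDR 0.858), -0.33 in WB1P (-0.84 to 0.18, edgeR FDR 0.35) and -0.49 in WB1P-Myc (-0.97 to -0.01, edgeR FDR 0.149).

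Anxa3 encodes annexin A3, a calcium-dependent phospholipid-binding protein, and of the 8 genes it had the smallest SD relative to its mean in CD26+ WB1P cells (363.8 ± 21.2 CPM, SD, n = 4). Control NFs had 29.4, 19.4 and 17.8 CPM in CD26- and 211.8, 534.6 and 340.2 CPM in CD26+ cells. WB1P CAFs had 50.9, 46.7, 51.7, 54.3 and 72.2 CPM in CD26- and 334.5, 383.6, 373.7 and 363.3 CPM in CD26+ cells. WB1P-Myc CAFs had 46.6, 62.0, 81.9, 91.1 and 54.0 CPM in CD26- and 439.8, 324.3, 456.7, 365.9 and 260.4 CPM in CD26+ cells. The CD26+ ranges of the 3 conditions overlapped, while all CD26- CAFs lay above all CD26- NFs. The log2 difference between the classes was 4.03 in control (SE 0.32, edgeR FDR 1.21e-07), 2.72 in WB1P (SE 0.24, edgeR FDR 1.04e-07) and 2.46 in WB1P-Myc (SE 0.23, edgeR FDR 2.06e-07).

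**Figure D1:**
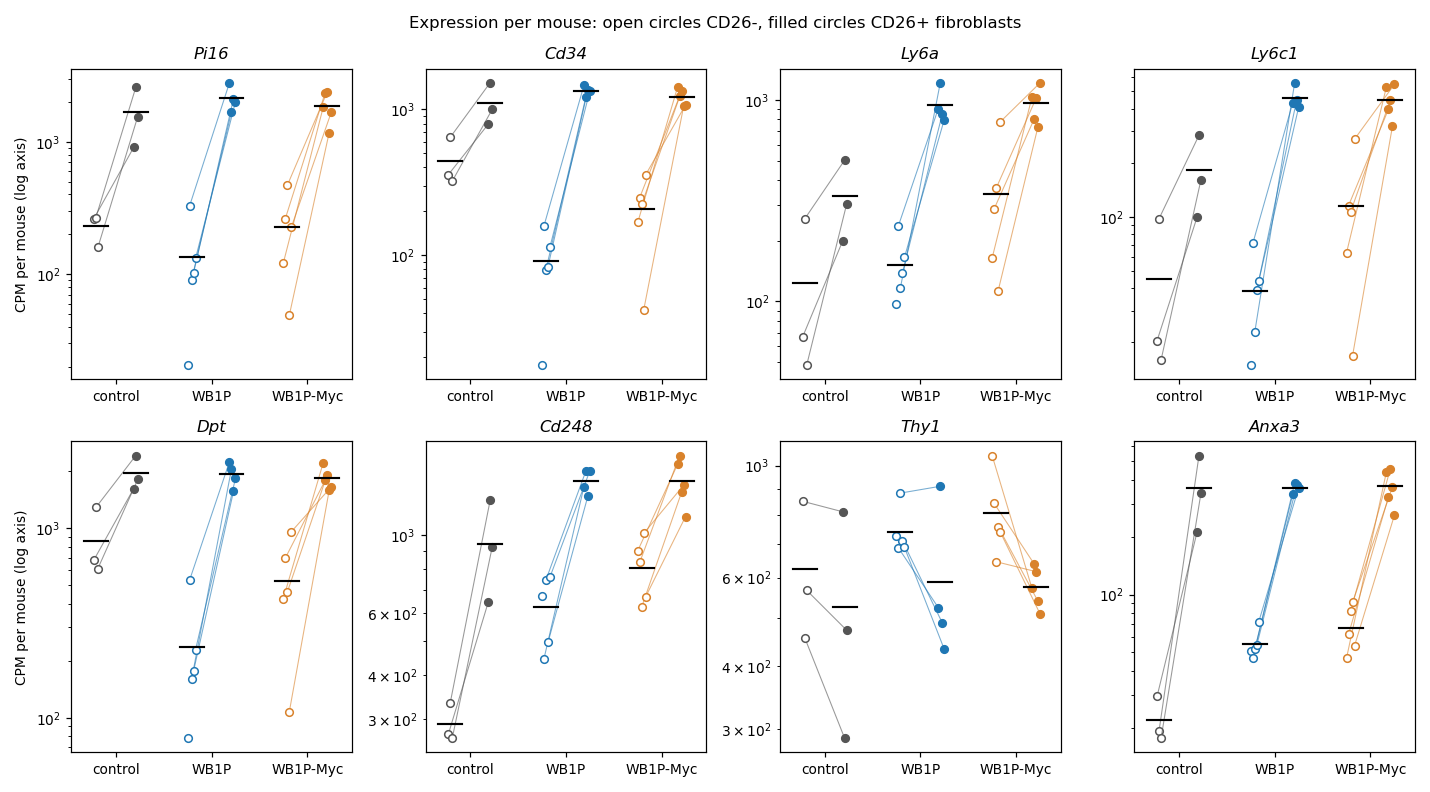
TMM-scaled CPM (log axis) of the 8 genes in each mouse of the control, WB1P and WB1P-Myc groups; open points are CD26- and filled points CD26+ cells, lines join the classes of a mouse and black bars are group means. Pi16 ran from 20.5 to 469.0 CPM in CD26- and from 909.1 to 2797 in CD26+ cells, while the Thy1 classes overlapped in control and WB1P.

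Counted over the 8 genes, CD26+ cells were called higher for 3 genes in control (Pi16, Cd248 and Anxa3), where 2.67% of all genes tested were called higher and 1.49% lower. In WB1P 7 genes were called higher, against 13% of all genes higher and 13% lower, and in WB1P-Myc 7 genes, against 9.29% higher and 10.7% lower. In both tumor models the gene not called was Thy1. The median log2 difference of the 8 genes was 1.57 in control, 2.88 in WB1P and 1.88 in WB1P-Myc, and that of all genes was -0.02, 0.01 and -0.01. The classes did not overlap in any of the 3 conditions for Pi16, Cd34, Ly6c1, Dpt, Cd248 and Anxa3. The share of all genes without overlap was not counted, here or in the tumor comparisons below. Overlap is therefore only a description of single genes. The paper already names Cd248 and Dpt for CD26+ NFs, from its single-cell data. It also reports CD34 as a marker present on inflammatory CAFs and absent from myofibroblastic CAFs of its lobular tumors.

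Since both classes came from the same mice, the comparison was repeated with the mouse as a replicate block. As a random block (voom), 5 genes were called higher in control, with 6.39% of all genes, because Ly6a and Ly6c1 were added. As a fixed replicate block, 6 genes were called there, with 5.71% of all genes, and Cd34 joined them beside Ly6a and Ly6c1, at the values given for each gene above. In WB1P-Myc the paired analysis called Thy1 lower in CD26+ cells, by -0.47 on the log2 scale (limma FDR 0.0283 with the random block, edgeR FDR 0.0172 with the fixed block, where 17.0% of all genes were called lower).

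**Figure D2:**
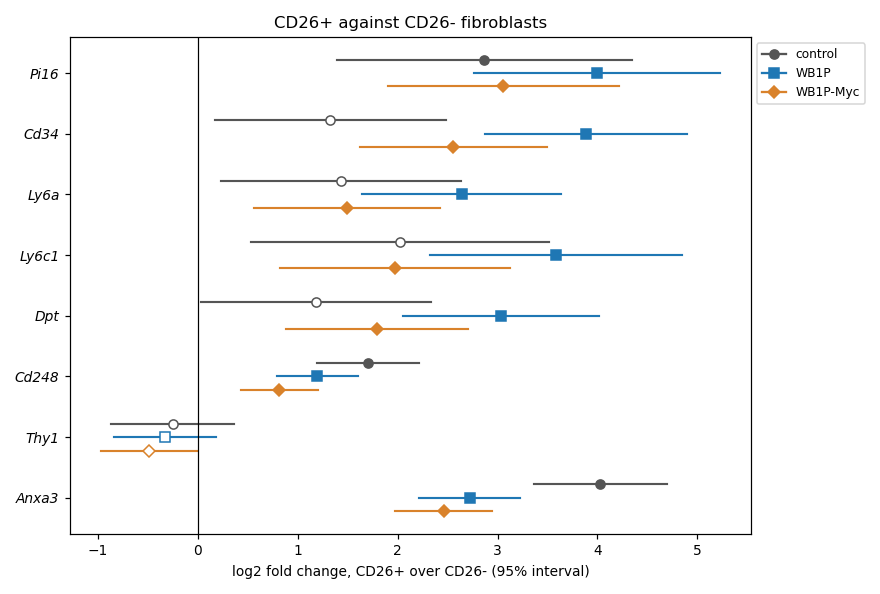
Log2 fold change of CD26+ against CD26- cells (x axis) for each of the 8 genes in control, WB1P and WB1P-Myc, with 95% intervals; filled markers are edgeR FDR under 0.05. Points lie right of 0 for 7 genes in each condition, from 0.82 for Cd248 in WB1P-Myc to 4.03 for Anxa3 in control, and left of 0 for Thy1.

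Per kb of annotated exon, a rough scale for setting genes side by side, Dpt led in CD26+ cells of every condition, at 1132 CPM per kb in control, 1117 in WB1P and 1064 in WB1P-Myc. The lengths joined the exons of all annotated transcripts (7290 bases for Cd34, 6364 for Pi16, 1724 for Dpt and 1205 for Ly6a), so the order depends on them. The uncertainty from shared reads holds here for Ly6a and Ly6c1. In CD26+ NFs the order went on with Cd248 (362.0 CPM per kb), Ly6a (277.6), Pi16 (263.6), Thy1 (174.8), Cd34 (151.5), Ly6c1 (108.3) and Anxa3 (99.4), and apart from Dpt each of these differed from the next by less than the larger of their SDs between mice. In CD26+ CAFs of both models Ly6a took the place after Dpt (782.3 and 797.3 CPM per kb), followed by Cd248 (549.1 and 547.7), Pi16 (337.5 and 295.4) and Ly6c1 (275.6 and 267.6), and Anxa3 was again the lowest (99.9 and 101.4). In CD26- cells Dpt led in control (499.2 CPM per kb), Thy1 in WB1P (246.6) and Cd248 in WB1P-Myc (311.0), with Cd248 (239.6) just below Thy1 in WB1P and Dpt (307.3) just below Cd248 in WB1P-Myc. These neighbours had overlapping spreads between mice.

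Among CD26- cells, tumors and control glands differed in both directions. WB1P CAFs had lower Cd34, by -2.28 on the log2 scale (SE 0.48, edgeR FDR 0.000954), and lower Dpt, by -1.87 (SE 0.48, edgeR FDR 0.00449), from the levels given above, with no overlap between groups. Anxa3 was higher by 1.31 (SE 0.27, edgeR FDR 0.000708) and Cd248 by 1.11 (SE 0.22, edgeR FDR 0.000595), again without overlap. So 2 of 8 genes were called higher and 2 lower, where 17.6% of all genes were called higher and 17.8% lower. The remaining 4 genes were not called (log2 values -0.77 for Pi16 to 0.28 for Ly6a, interval bounds -1.98 to 1.35, edgeR FDR 0.319 to 0.81). Without control mouse 2, which had the highest CD26- Dpt, the Dpt call was lost (log2 -1.44, edgeR FDR 0.0525). All 8 pericyte genes were called higher in these CAFs than in CD26- NFs, and their part in the lower Cd34 and Dpt and the higher Cd248 was not tested.

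In CD26- WB1P-Myc CAFs, compared with the same control mice, 3 of 8 genes were called higher and 0 lower, where 19.1% of all genes were called higher and 17.5% lower. Anxa3 was higher by 1.60 on the log2 scale (SE 0.27, edgeR FDR 0.000144) and Cd248 by 1.48 (SE 0.23, edgeR FDR 4.63e-05), with no overlap between the groups. Ly6a was higher by 1.46 (SE 0.54, edgeR FDR 0.0376) with overlapping groups. That call was lost without control mouse 1 or 3 (log2 1.15 and 1.07, edgeR FDR 0.157 and 0.19), without WB1P-Myc mouse 10, 11 or 13 (1.49, 1.44 and 0.91, edgeR FDR 0.0524, 0.064 and 0.154) and without both mice marked 8x8 (1.14, edgeR FDR 0.0961). Cd34 differed by -1.09 (SE 0.48, 95% interval -2.08 to -0.09, edgeR FDR 0.0804) and was called without mouse 13 (log2 -1.37, edgeR FDR 0.0436). Ly6c1 differed by 1.36 (SE 0.65, edgeR FDR 0.106) and was called without control mouse 2 (2.68, edgeR FDR 0.00978) or WB1P-Myc mouse 12 (1.61, edgeR FDR 0.0442). For Dpt, Thy1 and Pi16 no difference was called, and here too all 8 pericyte genes were called higher than in CD26- NFs, with their part not tested.

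Among CD26+ cells the tumor values differed from the control values for Ly6a and Cd248, with the same 3 control mice in both comparisons. Ly6a in control mice (199.0, 501.7 and 302.7 CPM) lay below every WB1P (798.5 to 1217 CPM) and WB1P-Myc value (736.4 to 1214 CPM), by 1.50 on the log2 scale in WB1P (SE 0.56, edgeR FDR 0.0418) and 1.52 in WB1P-Myc (SE 0.54, edgeR FDR 0.0331). Cd248 was higher by 0.60 in WB1P (SE 0.23, edgeR FDR 0.0448) and 0.60 in WB1P-Myc (SE 0.22, edgeR FDR 0.038). Ly6c1 also lay apart from control in both models, at log2 values of 1.35 (SE 0.67, edgeR FDR 0.124) and 1.31 (SE 0.65, edgeR FDR 0.121), which were not called. Hence 2 of 8 genes were called higher in each model and 0 lower, where 17.4% of all genes were called higher and 16.1% lower in WB1P, and 17.4% higher and 17.3% lower in WB1P-Myc, shares close to those of the 8 genes. These calls were near the threshold. In WB1P, Ly6a was no longer called without control mouse 1 or 3 or without any of WB1P mice 5 to 8 (log2 1.22 to 1.54, edgeR FDR up to 0.145), and Cd248 without control mouse 1 stood at 0.38 (edgeR FDR 0.246). In WB1P-Myc, Ly6a without control mouse 1 stood at 1.26 (edgeR FDR 0.126) and Cd248 at 0.39 (edgeR FDR 0.225), and Ly6a was also lost without control mouse 3 or WB1P-Myc mouse 10 or 11, and Cd248 without control mouse 3 or WB1P-Myc mouse 9, 10 or 12. Pi16, Cd34, Dpt, Thy1 and Anxa3 were not called in either model. The median log2 difference of the 8 genes in CD26+ cells was 0.32 in WB1P and 0.16 in WB1P-Myc, against 0.00 and -0.01 for all genes, and in CD26- cells it was 0.01 and 0.86, against 0.00 and 0.02.

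**Figure D3:**
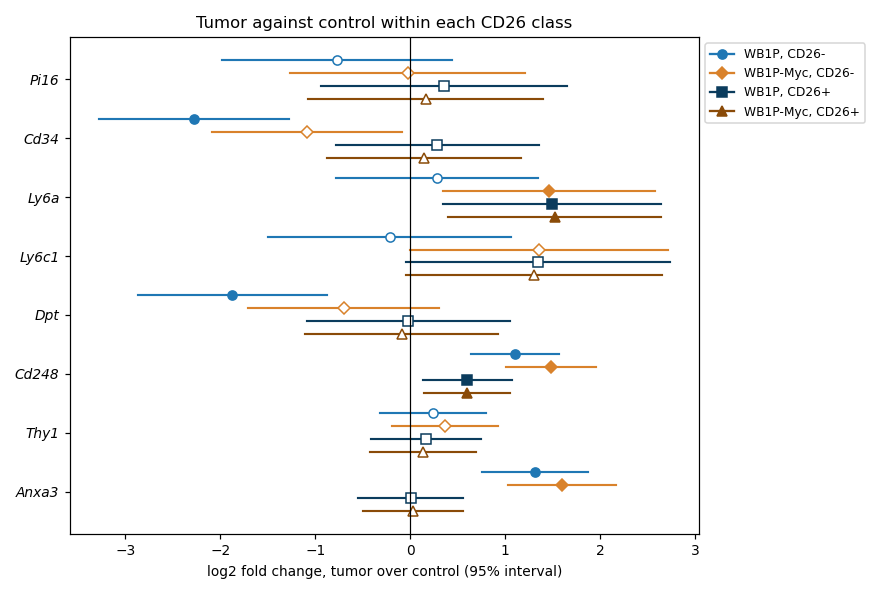
Log2 fold change of tumor against control (x axis) for the 8 genes, in CD26- and in CD26+ cells of WB1P and WB1P-Myc, with 95% intervals; filled markers are edgeR FDR under 0.05. Cd34 (-2.28) and Dpt (-1.87) lie left of 0 in CD26- WB1P cells, and Ly6a (1.50 and 1.52) and Cd248 (0.60 and 0.60) lie right of 0 in CD26+ cells of both models.

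The tumor models were also compared with each other. In CD26- CAFs all 8 log2 values of WB1P-Myc against WB1P were above 0, from 0.13 to 1.57, led by Ly6c1 (1.57, SE 0.55, edgeR FDR 0.193), Cd34 (1.19, SE 0.43, edgeR FDR 0.207), Ly6a (1.18, SE 0.45, edgeR FDR 0.223) and Dpt (1.17, SE 0.43, edgeR FDR 0.214). By edgeR 0 of the 8 were called, against 0.205% of all genes higher and 0.307% lower, 4 (Cd34, Ly6a, Ly6c1 and Dpt) had an unadjusted p under 0.05, and DESeq2 called 0. The median of the 8 was 0.96, against 0.03 for all genes. The CD26- sum of WB1P mouse 4 held En1+ cells only, and those of WB1P-Myc mice 9 and 11 double- cells only. The part of this mix in the CD26- values was not tested. In CD26+ CAFs the 8 log2 values lay between -0.19 and 0.03 with interval bounds from -1.32 to 1.14, edgeR called 0 of 8 genes and 0.00% of all genes, 0 of 8 had an unadjusted p under 0.05 and DESeq2 called 0 of 8.

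Whether the CD26 difference itself differed between conditions was tested as an interaction. For WB1P against control, edgeR called 0 of 8 genes and 1.86% of all genes, while 3 of the 8 had a p under 0.05 before adjustment and DESeq2 called 2. The largest value was that of Cd34, whose CD26 difference was 2.56 greater on the log2 scale in WB1P (SE 0.72, 95% interval 1.07 to 4.05, edgeR FDR 0.0735). Cd34 was called by DESeq2 (2.56, FDR 0.013), with the mouse as a random replicate block (2.57, limma FDR 0.0298), as a fixed replicate block (2.33, edgeR FDR 0.0222) and without the mice marked 8x8 (2.56, edgeR FDR 0.0344). Anxa3 went the other way, with a CD26 difference smaller in WB1P (-1.31, SE 0.37, edgeR FDR 0.0786), which was called by DESeq2 (-1.32, FDR 0.0237), with the random replicate block (-1.23, limma FDR 0.0227) and without control mouse 1 (-1.85, edgeR FDR 0.0181). In WB1P-Myc against control, Anxa3 was the 1 gene of 8 called, at -1.57 (SE 0.36, 95% interval -2.32 to -0.81, edgeR FDR 0.0363), with 1.16% of all genes called. Its call was lost without control mouse 2 (-1.09, edgeR FDR 0.321) or 3 (-1.47, edgeR FDR 0.234), without WB1P-Myc mouse 10 (-1.57, edgeR FDR 0.0691), 11 (-1.58, edgeR FDR 0.0627) or 12 (-1.44, edgeR FDR 0.0976) and without both mice marked 8x8 (-1.35, edgeR FDR 0.153). Cd248 stood at -0.89 (SE 0.30, edgeR FDR 0.229) and was called with the random replicate block (-0.82, limma FDR 0.0324). Between WB1P-Myc and WB1P the 8 values ran from -1.62 to -0.16, edgeR called 0 of 8 and 0.00% of all genes, 1 gene (Cd34) had an unadjusted p under 0.05 and DESeq2 called 0 of the 8.

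The En1 lineage was compared within each CD26 class on the 44 single libraries, with 15584 genes tested. En1+ against double- cells gave log2 values from -0.49 to 0.07 (interval bounds -1.18 to 0.70), and edgeR called 0 of 8 genes, against 0.00642% of all genes, with 0 of 8 at an unadjusted p under 0.05 and 0 called by DESeq2. With the mouse as a fixed replicate block, Pi16 was lower in En1+ cells by -0.41 (edgeR FDR 0.0118) and Cd34 by -0.37 (edgeR FDR 0.00394), where 2.26% of all genes were called lower. The En1+ level of Pi16 was 0.51 to 1.17 times that of double- cells of the same mouse, with a median of 0.72, and it was lower in 8 of 10 mice. For Cd34 the median was also 0.72, and 3 of 10 mice were higher in En1+ cells. Double+ against CD26+ cells gave values from -0.02 to 0.16 (interval bounds -0.83 to 0.82), and 0 of 8 genes were called, against 0.0128% of all genes, with 0 called by DESeq2.

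The members varied together to different degrees. After the group means were subtracted from log2 CPM over the 25 sums, the pairs among Pi16, Cd34, Ly6a, Ly6c1 and Dpt had correlations of 0.63 to 0.95, so a mouse that was high for 1 of them within its group was mostly high for the others. Cd248 correlated with these 5 genes at -0.28 to -0.12 and with Anxa3 at 0.48, and Thy1 correlated negatively with every other member (-0.39 to -0.14). The points share mice, libraries and depth, and these values are descriptions.

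**Figure D4:**
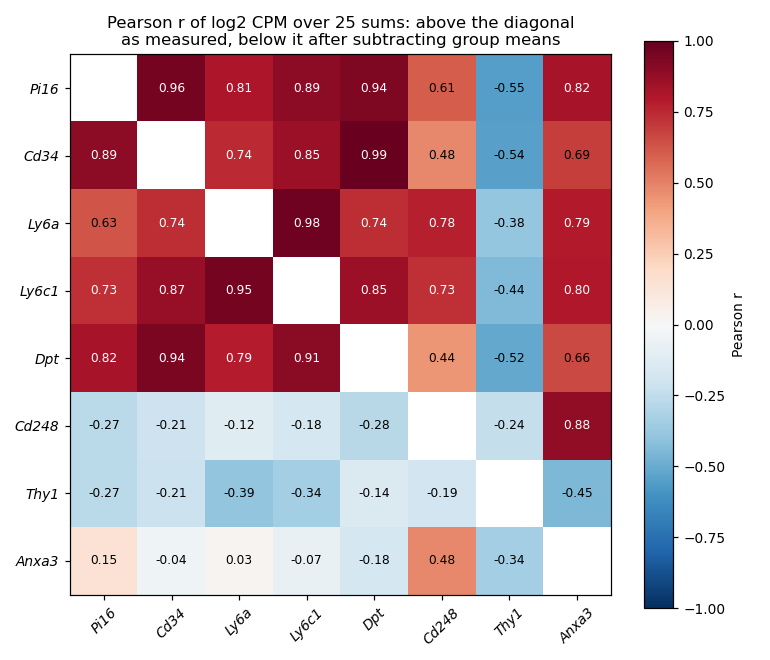
Pearson correlation of log2 CPM between the 8 genes over 25 sums of mouse and CD26 class, as measured above the diagonal and after subtracting group means below it. Below the diagonal the block of Pi16, Cd34, Ly6a, Ly6c1 and Dpt holds values of 0.63 to 0.95, and Thy1 is negative with each other gene.

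The genes whose log2 CPM was most like that of each member over the 25 sums were named by Pearson correlation, which here mostly follows the CD26 classes. Pi16 was most like Cd55 (0.98), Efhd1 (0.97) and Sema3c (0.96). Cd34 was most like Clec3b (0.99), Dpt (0.99) and Ackr1 (0.98), and Dpt most like Clec3b (0.99), Efemp1 (0.99) and Cd34 (0.99). Ly6a and Ly6c1 were each the most like the other (0.98), followed by C4a (0.96) and Tle5 (0.94) for Ly6a and by Thbs3 (0.96) and Fgf18 (0.96) for Ly6c1. Cd248 was most like Lgi3 (0.94), Lurap1l (0.93) and Marcks (0.93), Thy1 most like Rce1 (0.89), Evl (0.88) and Tpm4 (0.86), and Anxa3 most like Duoxa1 (0.97), Adgrg2 (0.96) and Mcf2l (0.96).

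The other genes of the Pi16+ universal state were described from a list of 22 genes that holds none of the 8 members. The paper already reports Fn1, Fbn1 and Emilin2 of this list for CD26+ NFs, from its single-cell data. The list was also chosen with earlier results of these data known, so its counts are descriptions and not an independent check. Between the CD26 classes, shares of all genes called higher and lower were 2.67% and 1.49% in control and 13% and 13% in WB1P. In WB1P-Myc they were 9.29% and 10.7%. In CD26+ against CD26- cells 11 of 22 were called higher and 0 lower in control (median log2 1.42). In WB1P the counts were 19 and 0 (median 2.13), and in WB1P-Myc 19 and 0 (median 2.01). The largest differences were those of Limch1 (an actomyosin-binding protein; log2 6.43 in control, 4.34 in WB1P and 3.30 in WB1P-Myc), Smpd3 (neutral sphingomyelinase; 5.94, 5.51 and 4.90), Efhd1 (a mitochondrial calcium-binding protein; 4.07, 5.90 and 4.99) and Sema3c (a secreted semaphorin; 4.93, 5.10 and 4.44), each called in all 3 conditions. Of the 4 most abundant genes, Fbn1 (fibrillin 1, of microfibrils) was called in all 3 (1.49, 1.08 and 1.28), while Gfpt2 (hexosamine synthesis; 1.33, 1.59 and 1.52) and Has1 (hyaluronan synthase; 0.76, 1.91 and 1.46) were called in both tumor models and not in control, and Fn1 (fibronectin; 0.77, 0.56 and 0.92) was called in WB1P-Myc and not in the others. In tumors against control 3 were called higher and 10 lower in CD26- WB1P cells (median -0.52), 3 and 8 in CD26- WB1P-Myc cells (median -0.62), 2 and 5 in CD26+ WB1P cells (median 0.06) and 1 and 5 in CD26+ WB1P-Myc cells (median -0.15). Over all genes, shares called higher and lower were 17.6% and 17.8%, 19.1% and 17.5%, 17.4% and 16.1%, and 17.4% and 17.3% in these comparisons. Of 22 genes, the counts called higher lay below those shares and the counts called lower above them. The counts called lower exceeded their share furthest in CD26- WB1P cells. The genes called lower in CD26+ cells of both models were Bmp7, Limch1, Dact2, Smpd3 and Creb5. Smpd3 differed by -3.87 and Limch1 by -1.675 in CD26+ WB1P cells, and by -3.285 and -1.624 in CD26+ WB1P-Myc cells.

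Of 16 genes of the Col15a1+ universal state, 0 were called in either direction between the CD26 classes in control (median log2 -0.81), 2 higher and 6 lower in WB1P (median -0.88), and 0 higher and 8 lower in WB1P-Myc (median -1.04). The paper reports Col15a1, Col18a1, Col4a1, Col4a2, Col5a3 and Sparcl1 for CD26- NFs, so these counts too are descriptions. Beside them, 2.67% of all genes were called higher and 1.49% lower in control, and 13% and 13% in WB1P. In WB1P-Myc those shares were 9.29% and 10.7%. Col15a1 itself (a basement membrane collagen) differed by -0.81 in control (edgeR FDR 0.448), -2.37 in WB1P (edgeR FDR 0.000107) and -1.86 in WB1P-Myc (edgeR FDR 0.000492). The type IV collagen genes Col4a1 and Col4a2 fell by 2.12 and 2.06 on the log2 scale in WB1P and by 1.82 each in WB1P-Myc. Sparcl1 (a SPARC-like matrix glycoprotein) fell by 3.54 in WB1P and 4.11 in WB1P-Myc, and Ednrb (endothelin receptor B) differed by -6.49 and -6.99. Penk (proenkephalin) went the other way in WB1P (2.43, edgeR FDR 0.00992). Col5a3 and Hspg2, which encode a type V collagen chain and perlecan, were not called in any condition. Col15a1, Col4a1, Col4a2, Sparcl1 and Ednrb are also expressed by pericytes, of whose 8 genes 5 in WB1P and 7 in WB1P-Myc were called lower in CD26+ cells, and their part in these differences was not tested. In tumors against control 1 gene of the list was called higher and 5 lower in CD26- WB1P cells (median -0.34), 2 and 4 in CD26- WB1P-Myc (median -0.19), 1 and 7 in CD26+ WB1P (median -1.04) and 1 and 8 in CD26+ WB1P-Myc (median -0.77). The shares of all genes called lower were 17.8%, 17.5%, 16.1% and 17.3% and those called higher 17.6%, 19.1%, 17.4% and 17.4%. Of the counts of lower genes, 4 of 16 in CD26- WB1P-Myc lay nearest to its share.

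**Figure D5:**
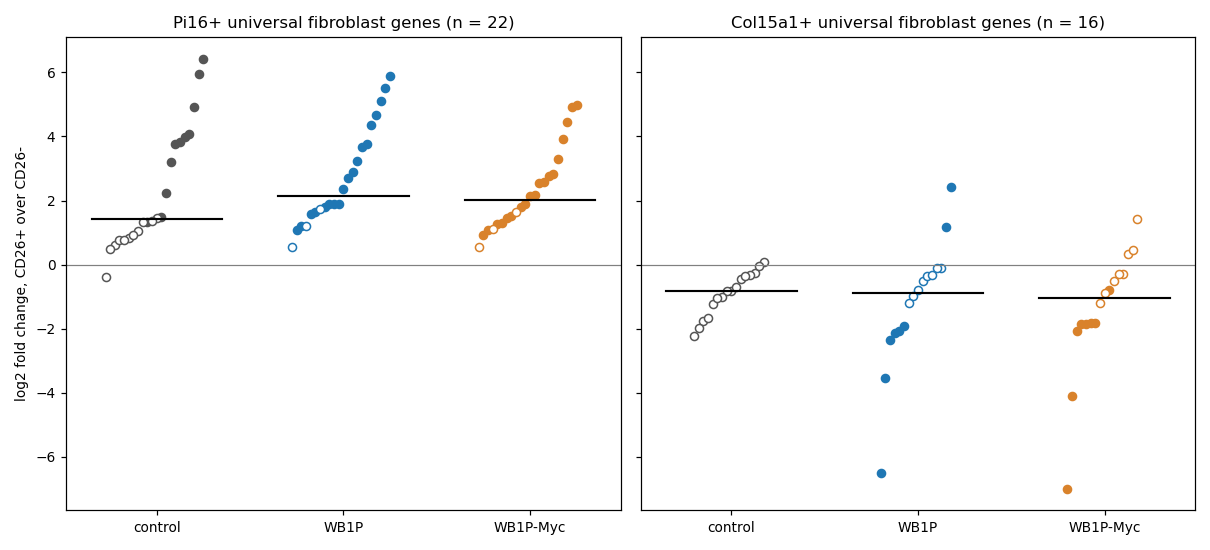
Log2 fold change of CD26+ against CD26- cells (y axis) for the 22 Pi16+ and 16 Col15a1+ universal fibroblast genes in control, WB1P and WB1P-Myc; each dot is a gene, filled where edgeR FDR was under 0.05, and black lines are medians. Medians of the Pi16+ genes lie at 1.42, 2.13 and 2.01 and those of the Col15a1+ genes at -0.81, -0.88 and -1.04.

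Of 18 genes of the Ly6 cluster and its relatives, 12 passed the low-count filter, and most were rare. Between the CD26 classes 0 were called in control, and 5 were called higher and 0 lower in WB1P and in WB1P-Myc. They were Ly6a, Ly6c1, Lynx1 (log2 0.68 and 0.64), Gml and Gml2, of which the last pair averaged 0.22 and 0.13 CPM. Ly6a and Ly6c1 are themselves among the members described above. Of all genes, 2.67% were called higher and 1.49% lower in control, and 13% and 13% in WB1P. In WB1P-Myc these shares were 9.29% and 10.7%. Ly6e, the other abundant gene of the cluster, did not follow CD26, with log2 values of 0.20, -0.01 and 0.13 that were not called. It rose in tumors instead, from 195.0 ± 43.5 CPM (SD, n = 3) in CD26- and 224.1 ± 37.6 (SD, n = 3) in CD26+ NFs to 580.1 ± 69.2 (SD, n = 5) and 576.8 ± 109.2 (SD, n = 4) in WB1P and 604.0 ± 332.1 (SD, n = 5) and 659.3 ± 316.7 (SD, n = 5) in WB1P-Myc. Those differences were 1.57 and 1.36 on the log2 scale in WB1P (edgeR FDR 0.00261 and 0.00996) and 1.63 and 1.56 in WB1P-Myc (edgeR FDR 0.0022 and 0.00359). In tumors against control 2 genes were called higher (Ly6d, Ly6e) and 2 lower (Ly6i, Lynx1) in CD26- WB1P cells, 2 higher (Ly6a, Ly6e) and 1 lower (Lynx1) in CD26- WB1P-Myc cells, and 4 higher (Ly6a, Ly6e, Gml, Gml2) and 0 lower in CD26+ cells of each model. Shares of all genes called higher and lower were 17.6% and 17.8% in CD26- WB1P and 19.1% and 17.5% in CD26- WB1P-Myc cells. In CD26+ cells they were 17.4% and 16.1% in WB1P and 17.4% and 17.3% in WB1P-Myc. The CD26- counts, of 12 genes, lay near or below those shares. Ly6c2, Ly6k, Ly6h and Gpihbp1 were not called in any of these comparisons.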

How the data were processed

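Deposited values were gene counts that the authors made from TruSeq stranded mRNA libraries sequenced paired-end for 54 cycles, with HISAT2 2.2.1 and the GRCm38 build named in the submitters' processing notes. The counter, the annotation and the strand setting are not given in the sources used here. The table held 55487 lines, of which 1 named no gene (0 counts), and 0 columns of per-sample values were left unused. Samples were grouped by their labels, with replicates numbered in the order of mice.

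Counts were added per mouse and CD26 class, filtered and TMM-scaled, and tested with edgeR 4.0.16 (quasi-likelihood, R 4.3.3) in 1 fit over the 6 groups. The p-values were adjusted by Benjamini-Hochberg across all genes tested, for each comparison by itself and not across comparisons, with calls at FDR under 0.05. CPM are TMM-scaled, SE were derived from the F statistic, and intervals cover 95%. The 12 groups of single libraries were fitted likewise for the En1 comparisons. Alternatives were DESeq2 1.42.0, DESeq2 size factors, no filter, limma 3.58.1 voom with the mouse as a random block, the mouse as a fixed block, leaving out each mouse, and leaving out the mice marked 8x8. DESeq2 is the tool of the study's methods. The scripts were tested on simulated data.

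Same-mouse classes share an animal by their labels, and over 12 pairs their deviations from group means correlated at 0.24 to 0.67 (median 0.44; voom estimate 0.449), so the numbers pair the samples. The reported fit has no mouse term, and the paired fits are alternatives given beside the results whose call they change. Of 63 pairs of libraries of the same group, 0 were identical. Sequence comparisons used Python 3.11.15 and Biopython 1.88 with GENCODE M21, whose coordinates matched for 54869 of 55226 shared identifiers. All 8 members were named, with Dpp4, the tested Ly6 genes, the 3 genes most correlated with each member, and, of each universal fibroblast list, the 4 most abundant genes and the 4 with the largest CD26 difference. Outside the CD26 comparisons, members that missed the call with an FDR above 0.5 are given as ranges. The members and lists were chosen with earlier results of these data known.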

Additional observations from a re-analysis of the deposited data

Results flagged for a closer look

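Thy1 in CD26- cells of WB1P replicate 6 stood at 882.3 CPM, and the nearest other mouse of its group at 724.1 CPM, a gap that passed Dixon's test at the 95% level. It was the 1 group so marked among 32 groups of gene, condition and CD26 class that were tested, where chance gives about 1 in 20 groups, or 1.6 here. The CD26 difference of Anxa3 was smaller in WB1P-Myc than in control by -1.57 on the log2 scale (edgeR FDR 0.0363, an interaction term), with CD26- levels of 22.2 ± 6.29 CPM in control (SD, n = 3) and 67.1 ± 18.8 in WB1P-Myc (SD, n = 5) and CD26+ levels of 362.2 ± 162.6 and 369.4 ± 81.4 CPM.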

How the results depend on the processing

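The number of the 8 genes called between CD26 classes in control was 3, and 5 with the mouse as a random replicate block and 6 as a fixed replicate block; without any single control mouse it was 2. In CD26+ cells, 2 genes were called in WB1P against control, 1 with DESeq2 size factors, 0 with no filter on low counts, 1 without the mice marked 8x8 and 0 to 2 without single mice. In WB1P-Myc against control in CD26+ cells 2 were called, 1 with DESeq2 size factors, 1 with no filter and 0 to 2 without single mice. For the CD26 difference in WB1P against control 0 were called, 2 with DESeq2, 2 with the random replicate block, 1 with the fixed block, 1 without the mice marked 8x8 and 0 to 1 without single mice. In WB1P-Myc against control that count was 1, and 2 with the random block, 0 without the mice marked 8x8 and 0 to 1 without single mice. In En1+ against double- cells 0 were called, and 2 with the fixed replicate block. The cause of these shifts was not tested. Over all genes, the blocks raised the higher and lower calls between CD26 classes in control from 444 and 248 to 1060 and 1106 (random) or 948 and 968 (fixed), and in WB1P-Myc from 1543 and 1783 to 2679 and 2732 or 2516 and 2830; leaving out the mice marked 8x8 gave 898 and 1118 in WB1P-Myc. WB1P-Myc against WB1P in CD26- cells gave 34 and 51 calls, 177 and 234 with DESeq2, 19 and 74 with the random block, 21 and 33 with no filter and 33 and 17 without the mice marked 8x8, with 4 and 5 without WB1P-Myc mouse 13, 7 and 2 without mouse 9, and 140 and 103 without mouse 12. For the CD26 difference in WB1P against control, 131 and 178 calls became 264 and 382 with DESeq2, 613 and 546 with the random and 361 and 490 with the fixed block, and in WB1P-Myc against control 46 and 147 became 119 and 295, 311 and 359, and 180 and 343, or 21 and 104 without the mice marked 8x8. En1+ against double- cells gave 1 and 0 calls, 3 and 13 with DESeq2 and 101 and 352 with the fixed block, and double+ against CD26+ cells 2 and 0, 3 and 1, and 10 and 18. Without single control mice the control CD26 comparison gave 141 to 327 genes higher and 34 to 153 lower. Under the alternatives other than leaving out a single mouse, 62 counts of called members stayed within 1.5 times and 14 did not, and of single fold changes 281 kept their side of the threshold, 16 gained and 8 lost the call. Without single mice 97 counts stayed and 18 did not, and 325 fold changes kept their side, 4 gained and 40 lost the call. Of 1528 fold changes under the alternatives 109 had another sign than in the analysis reported, and 0 of these were called in either, with the lowest FDR at 0.673. The blocks changed no other call of a member than those given here and in the text. Depth was not varied, and the control groups of 3 mice limit the precision.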
